A study of Mus musculus with 8 samples.

Results

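The genes described here are 29 named genes of cellular cholesterol handling, read in group 2 innate lymphoid cells (ILC2s) sorted from mouse visceral fat. They were chosen by name: 19 enzymes of cholesterol synthesis, 5 genes of the sterol-sensing control of that synthesis, and 5 genes of sterol efflux and transport. Of the 29, 28 are among the 24922 genes of the deposited table that hold no value below 0, and 27 are among the 11483 genes that passed the filter for testing, which was 1 FPKM or more in at least 4 of 8 libraries. FPKM counts fragments relative to gene length and library size. Values are given as deposited and carry a factor of 0.863 to 1.18 that repeats every 10 rows and differs between libraries. The order of single libraries within a gene includes this factor. Fdps stayed under that filter, and Hmgcs1 was deposited with values below 0.

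Cells make cholesterol from acetyl-CoA. The mevalonate arm builds isoprenoid units, which also feed protein prenylation, ubiquinone and dolichol, and the sterol arm turns squalene into cholesterol through a long series of ring and side-chain reactions. When sterols in the endoplasmic reticulum fall, the carrier SCAP takes the transcription factor precursors SREBP1 and SREBP2 to the Golgi, where they are cut and released to raise synthesis and uptake genes, while INSIG1 and INSIG2 hold SCAP back when sterols are plentiful. Excess sterol activates the liver X receptors (LXRs), which raise the efflux pumps ABCA1 and ABCG1. ILC2s of visceral fat are tissue-resident cells that make type 2 cytokines and help sustain eosinophils and lean fat metabolism.

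The cells came from epididymal visceral fat of wild-type male C57BL/6 mice aged 14 weeks. One group (libraries N1 to N4) was kept on a normal diet and the other (H1 to H4) on a high-fat diet for 8 weeks from 6 weeks of age. No allele or agent other than diet separates the groups. The labels do not say whether each library is 1 animal or a pool, and a p-value here reflects how far these libraries scatter, part of which may be technical.

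Library depth ran from 9005363 recovered reads in H2 to 15752815 in H4. H2 also had the most genes at 1 FPKM or more, 13663. All 9 ILC2 markers passed the filter, among them Gata3 at 566 to 1145 FPKM. Their summed level was 4756 to 5495 in high-fat against 6395 to 7643 FPKM in normal-diet libraries, with 3 of 9 lower by the test. They did not all go the same way. Gata3, Il5, Il2ra and Rora were lower in every high-fat library. Il7r was higher in every one, at 203 to 272 against 150 to 199 FPKM, without passing the test. Il1rl1, Klrg1, Areg and Arg1 overlapped between the diets. Markers of other cells were also present. The 8 endothelial markers summed to 135 in H1, 25.7 in H2, 87.9 in H3 and 107 FPKM in H4, against 15.2 to 19.8 on the normal diet. Only 2 of the 8 passed the filter for testing, and 1 of them (Fabp4) was higher. Fabp4 made up most of the high-fat sums in H1, H3 and H4, at 104, 62.5 and 68.9 FPKM, while Cdh5 stayed under 1 FPKM in all libraries. Cdh5, Kdr, Egfl7 and Tie1 were low but higher in every high-fat than in every normal-diet library. Kdr, for instance, was at 0.694 to 1.82 against 0.0451 to 0.351 FPKM. Pecam1, Flt1 and Cldn5 overlapped between the diets. The 11 macrophage and dendritic cell markers summed to 12.1 to 13.1 on the high-fat and 8.29 to 9.86 FPKM on the normal diet, with C1qa, Mrc1, Fcgr1 and Itgax under 1 FPKM in all libraries. The 6 mast cell markers summed to 1700 in H2 and 4210 to 7788 in the other high-fat libraries, against 3715 to 7925 FPKM. The 10 T cell markers summed to 197 in H2 and 412 to 551 in the other high-fat libraries, against 201 to 357 FPKM. The 6 stromal markers summed to 5.65 to 36.4 against 2.61 to 9.40 FPKM, and no marker of the mast, T or stromal cell lists passed the test. No marker was at 0 in all libraries, and the part of these cells in the results below was not tested. In sorted bulk cells, fewer cells of a type and less RNA per cell cannot be told apart.

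Among the cholesterol genes 1 changed with diet, the mevalonate kinase gene Mvk, which fell. None rose, and 26 of the 27 tested did not pass the test (limma, Benjamini-Hochberg adjusted p under 0.05). Over all 11483 genes 328 passed, 2.86%, and 1.88% passed in the lower direction. Of the 27 fold changes 13 were above 0 and 14 below, with a median of -0.05 on the log2(FPKM + 1) scale, and 23 of 27 lay within 0.5 of 0. Over all tested genes the median was -0.02 and 87.2% lay within 0.5. High-fat and normal-diet libraries did not overlap in 2 of the 27 genes, Mvk and Abca1, against 11.1% of all tested genes. An unadjusted p under 0.05 was reached by 5 of the 27, Mvk, Abca1, Idi1, Insig2 and Scap, against 18.1% of all tested genes.

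**Figure D1:**
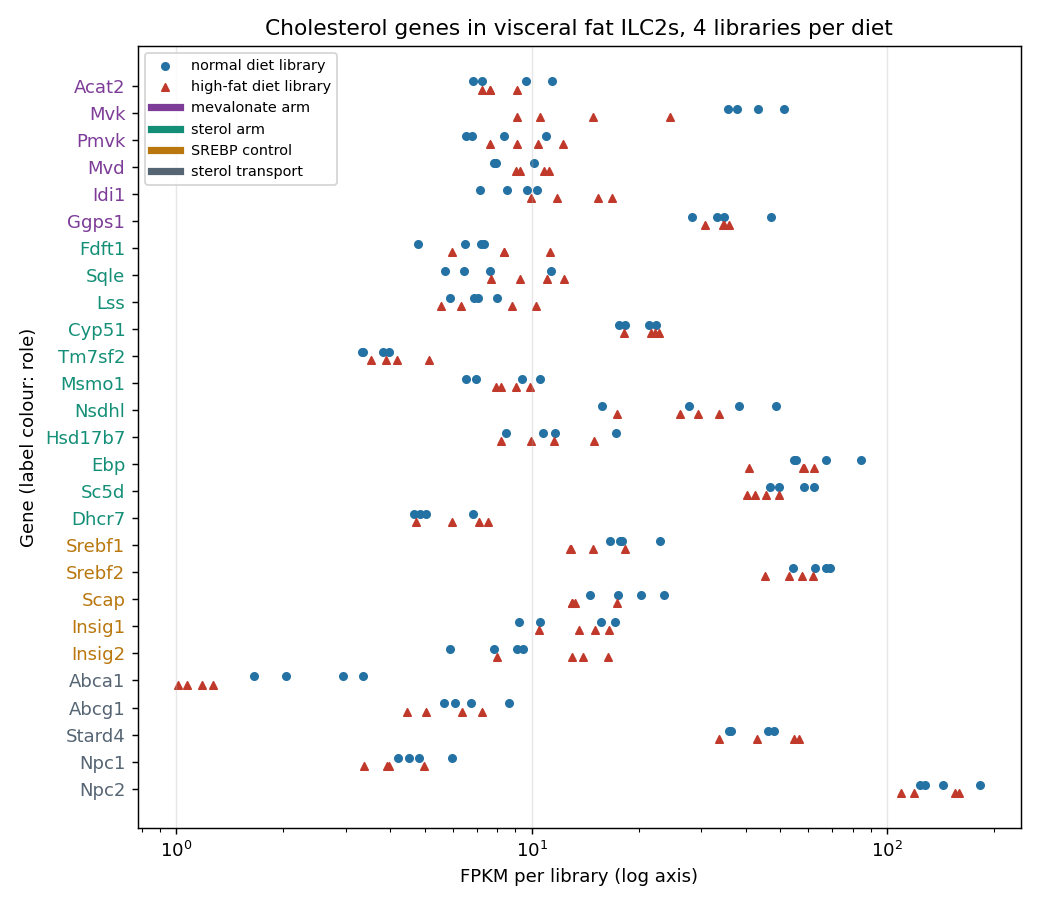
FPKM of the 27 tested cholesterol genes in each library, on a log axis, with circles for the normal and triangles for the high-fat diet and label colours for the gene's role. Levels reached from about 1 FPKM for Abca1 to above 100 FPKM for Npc2, and the diets stand apart for Mvk and Abca1.

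Mvk (ENSMUSG00000041939, mm10, chr5:114444269-114460591, plus strand) encodes mevalonate kinase, which puts the first phosphate on mevalonate. It measured 10.5, 24.5, 14.9 and 9.08 FPKM in H1 to H4. In N1 to N4 it measured 43.2, 51.2, 35.5 and 37.9 FPKM. Every high-fat library lay below every normal-diet library, and H2 was the highest of the high-fat ones. Means were 14.8 ± 6.96 on the high-fat and 42.0 ± 6.97 FPKM on the normal diet (SD, n = 4 each), so the mean level fell by 64.8%. The log2 fold change was -1.53 (SE 0.25, 95% interval -2.08 to -0.98, limma adjusted p = 0.00907). These values rested on 230 to 944 recovered reads per library. H2 also had the lowest endothelial, mast cell, T cell and stromal marker sums of the high-fat libraries. Its adipocyte sum was the highest, at 6.09 against 1.08 to 3.15 FPKM in the other high-fat libraries. Cidec gave 3.39 FPKM of it, and Adipoq, Plin1, Lep and Cfd stayed under 1 FPKM in all libraries. The part of all these cells in the Mvk result was not tested, and without H2 the Mvk fold change was -1.79. The call was lost under quantile normalization (-1.44, limma adjusted p = 0.0519) and held in the other 17 of 18 settings.

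The start of Mvk is shared with Mmab, which runs the other way from a RefSeq start 242 bases upstream and encodes a cobalamin adenosyltransferase. In Mmab the diets overlapped: 14.4, 18.0, 15.8 and 16.4 FPKM in H1 to H4 stood beside 22.7, 20.1, 17.6 and 13.3 FPKM in N1 to N4. Its log2 fold change was -0.16 (limma adjusted p = 0.676). The stretch between the 2 genes' exons is printed because Mvk is the cholesterol gene that passed the test. It is read from RefSeq on GRCm38.p6, chr5:114444061-114444268, plus strand, 208 bases, with 5 matches to CCAAT (on either strand, so also ATTGG) and 1 to GGGCGG in capitals.

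Mvk: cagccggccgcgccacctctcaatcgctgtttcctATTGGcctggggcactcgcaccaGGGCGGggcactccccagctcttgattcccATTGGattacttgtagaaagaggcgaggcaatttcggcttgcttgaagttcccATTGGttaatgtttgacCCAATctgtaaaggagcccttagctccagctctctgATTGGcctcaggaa

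Idi1 encodes isopentenyl diphosphate isomerase, which interconverts the pair of building blocks of isoprenoids. It measured 11.8, 9.97, 16.9 and 15.4 FPKM in H1 to H4 and 7.14, 10.3, 9.68 and 8.50 FPKM in N1 to N4. As deposited, 3 of 4 high-fat libraries lay above all normal-diet ones and H2 lay among them. Recovered reads divided by the library divisor implied by the deposited values leave the repeating factor out. On that scale H2 (233 reads, divisor 9214408) lay above all normal-diet libraries, of which N3 was highest (285 reads, divisor 11888452). The log2 fold change was 0.53 (SE 0.18, 95% interval 0.15 to 0.92) and did not pass the test (limma adjusted p = 0.130). Without H2, the shallowest library, it was 0.66 and passed (limma adjusted p = 0.0439), a setting in which calls over all genes rose from 328 to 536.

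The other mevalonate-arm genes did not pass. Pmvk and Mvd, the kinase and decarboxylase that follow Mvk, had log2 fold changes of 0.25 (limma adjusted p = 0.520) and 0.23 (0.452). In Pmvk the means were 9.84 ± 1.95 and 8.15 ± 2.03 FPKM, and in Mvd 10.1 ± 1.08 and 8.45 ± 1.12 FPKM, high-fat first (SD, n = 4 each). Acat2, the cytosolic acetoacetyl-CoA thiolase, differed by -0.12 (95% interval -0.49 to 0.25) and Ggps1, which makes geranylgeranyl diphosphate for prenylation, by -0.05 (-0.40 to 0.29). Over the 6 tested genes of the arm 3 fold changes were above 0 and 3 below, with a median of 0.09.

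Of the remaining enzymes of the arm, Hmgcs1, the cytosolic HMG-CoA synthase, has no usable FPKM. Its recovered reads numbered 333 to 574 per library. Divided by the library divisor implied by the deposited values (RPM scale), the 4 high-fat libraries gave 39.9, 36.1, 46.0 and 40.7. The normal-diet ones gave 42.9, 39.9, 29.2 and 39.2. The diets overlapped, with means of 40.7 ± 4.05 and 37.8 ± 5.97 (SD, n = 4 each) and a limma voom log2 fold change of 0.12 (SE 0.15, adjusted p = 0.708). Fdps, the farnesyl diphosphate synthase gene, was listed between 0.380 and 0.806 FPKM in high-fat and between 0 and 0.788 FPKM in normal-diet libraries, on 0 to 11 recovered reads. It shares 1124 of its 4208 annotated exon bases with Gm43738 on the same strand, and the part of that overlap in its low level was not tested.

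None of the 11 sterol-arm enzymes passed the test. Their fold changes ran from -0.28 to 0.36 with a median of 0.09, 7 above and 4 below 0, and the lowest adjusted p by limma was 0.342. At the entry to the arm, Fdft1 (squalene synthase) differed by 0.33 and Sqle (squalene epoxidase) by 0.36, with 95% intervals of -0.08 to 0.74 and -0.08 to 0.79. Means of Sqle were 10.1 ± 2.04 on the high-fat and 7.78 ± 2.50 FPKM on the normal diet (SD, n = 4 each). Both intervals include 0.

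None of the following enzymes passed. Lss, which closes the rings to lanosterol, differed by 0.11, the demethylases Cyp51 and Msmo1 by 0.09 and 0.08, and the reductases Tm7sf2 and Dhcr7 by 0.16 and 0.20. Hsd17b7, a sterol ketoreductase, differed by -0.09. Cyp51 measured 21.2 ± 2.06 and 19.9 ± 2.36 FPKM (SD, n = 4 each), with a 95% interval of -0.22 to 0.40. Nsdhl, a sterol dehydrogenase on the X chromosome, measured 38.2, 15.8, 27.7 and 48.5 FPKM in N1 to N4, a coefficient of variation of 43.1%. Its difference of -0.21 therefore had a wide 95% interval, -0.93 to 0.51.

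Ebp and Sc5d, the isomerase and desaturase of late sterol intermediates, were the most expressed enzymes of the arm. Ebp (chrX:8185329-8193512) measured 62.2, 40.9, 58.0 and 58.3 FPKM in H1 to H4 and 54.7, 84.2, 55.3 and 67.1 FPKM in N1 to N4. H2 was the lowest and N2 the highest, and the other libraries overlapped (log2 fold change -0.24, limma adjusted p = 0.516). Sc5d (chr9:42251595-42264256) measured 42.5, 40.2, 45.5 and 49.6 FPKM in H1 to H4 and 49.5, 62.4, 46.9 and 58.2 FPKM in N1 to N4. As deposited, its highest high-fat library, H4, exceeded N1 and N3. The difference of -0.28 (SE 0.15) did not pass (limma adjusted p = 0.342).

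**Figure D2:**
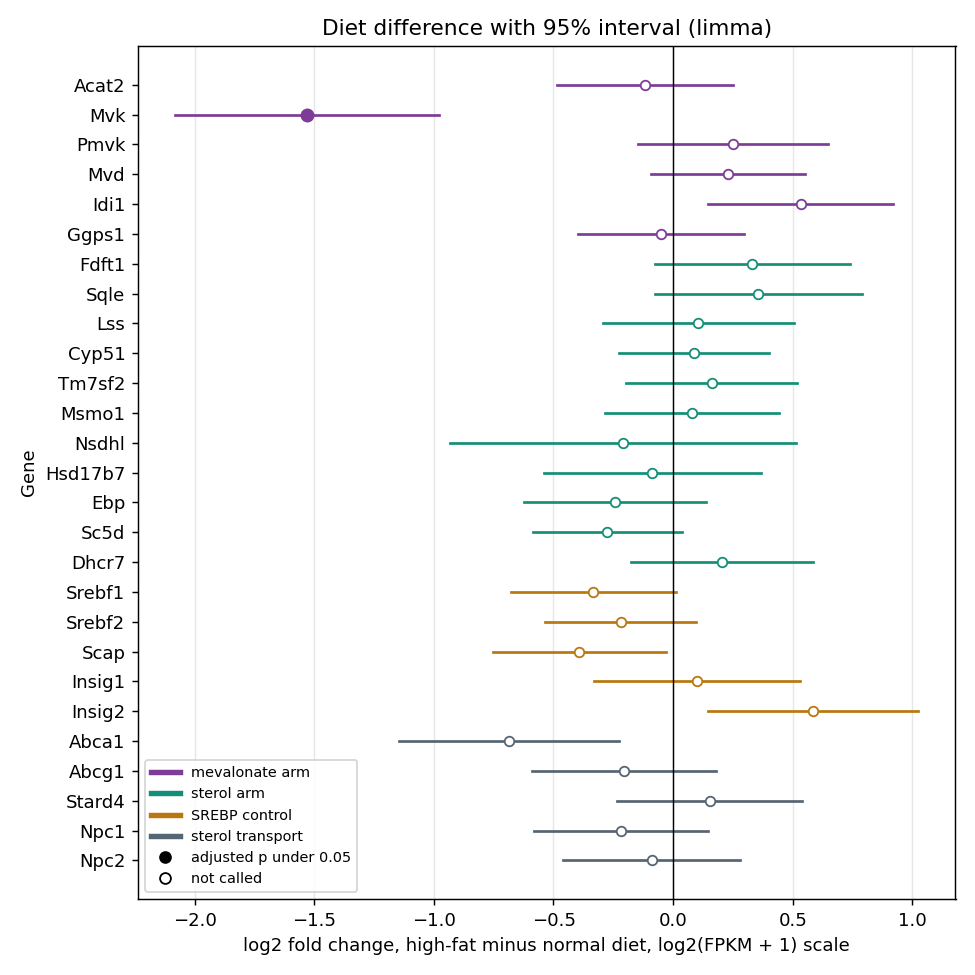
Log2 fold change, high-fat minus normal diet on the log2(FPKM + 1) scale, with 95% limma intervals for the 27 tested genes, coloured by role, with filled points for genes past an adjusted p of 0.05. Only Mvk is filled, at -1.53, and 23 of the 27 points lie within 0.5 of 0.

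The 5 SREBP control genes did not pass the test either. Srebf2, which encodes SREBP2, the main activator of synthesis genes, was at 52.9, 57.4, 61.9 and 45.4 FPKM in H1 to H4. On the normal diet it was at 67.0, 69.1, 54.4 and 62.7 FPKM. As deposited, with the repeating factor kept, H2 and H3 lay above N3. The difference was -0.22 (SE 0.15, limma adjusted p = 0.472). Srebf1, which encodes SREBP1, measured 14.7 ± 2.59 against 18.8 ± 2.83 FPKM (SD, n = 4 each), a log2 fold change of -0.33 (limma adjusted p = 0.290). Scap measured 14.1 ± 2.13 against 19.0 ± 3.84 FPKM, -0.39 (limma adjusted p = 0.234). As deposited, H4 was at 17.3 and the other high-fat libraries at 13.0 to 13.2 FPKM.

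The INSIG genes had fold changes above 0. Insig2 (chr1:121304353-121332589) measured 13.0, 7.98, 13.9 and 16.4 FPKM in H1 to H4 and 5.90, 9.08, 9.46 and 7.83 FPKM in N1 to N4. As in the deposited values of Idi1, 3 of 4 high-fat libraries lay above all normal-diet ones and H2 lay among them. The T cell marker sum had the same 3 libraries above the normal-diet range, and its part in both genes was not tested. The log2 fold change was 0.59 (SE 0.21, 95% interval 0.14 to 1.03, limma adjusted p = 0.144). It passed without H2 (0.78, limma adjusted p = 0.0214) and without both H2 and N2 (0.84, limma adjusted p = 0.0257), the latter a setting chosen after the data were seen. Insig1 measured 13.9 ± 2.58 against 13.1 ± 3.83 FPKM (SD, n = 4 each), a difference of 0.10 (limma adjusted p = 0.849), and whether the INSIG genes differ from each other in their response was not tested. The 250 bases before 1 of the 3 Insig2 starts in RefSeq are printed because Insig2 had the highest fold change among the cholesterol genes. They are read on the minus strand of GRCm38.p6, chr1:121332590-121332839, with 3 CCAAT matches in capitals and no GGGCGG.

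Insig2: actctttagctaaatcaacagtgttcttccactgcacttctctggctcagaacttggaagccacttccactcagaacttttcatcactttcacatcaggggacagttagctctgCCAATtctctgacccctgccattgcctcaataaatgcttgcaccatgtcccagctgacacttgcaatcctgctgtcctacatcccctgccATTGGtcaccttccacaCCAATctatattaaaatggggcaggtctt

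Among the transport genes Abca1, the LXR-driven pump that loads cholesterol onto apolipoproteins, stood lower in every high-fat library without passing the test. Abca1 (chr4:53030787-53159895, minus strand) measured 1.01, 1.27, 1.07 and 1.18 FPKM in H1 to H4. In N1 to N4 it measured 1.66, 2.04, 3.37 and 2.94 FPKM. The groups did not overlap, and the spread was wider on the normal diet: means were 1.13 ± 0.11 and 2.50 ± 0.79 FPKM (SD, n = 4 each). The log2 fold change was -0.69 (SE 0.22, 95% interval -1.15 to -0.23, limma adjusted p = 0.104), which understates the change of a gene this low, since 1 was added before the log. With 0.1 added in place of 1 it was -1.03 and did not pass (limma adjusted p = 0.109). Of 18 other settings 2 gave a call: with genes at 1 FPKM or more in all 8 libraries (limma adjusted p = 0.0316), and with limma voom on recovered reads, 102 to 404 per library (-1.05, adjusted p = 0.00874), a setting chosen after the data were seen. Over all 18 the adjusted p reached 0.226. The 250 bases before its start, printed for the second gene in which the diets did not overlap, are read on the minus strand of GRCm38.p6, chr4:53159896-53160145, with 2 GGGCGG matches in capitals.

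Abca1: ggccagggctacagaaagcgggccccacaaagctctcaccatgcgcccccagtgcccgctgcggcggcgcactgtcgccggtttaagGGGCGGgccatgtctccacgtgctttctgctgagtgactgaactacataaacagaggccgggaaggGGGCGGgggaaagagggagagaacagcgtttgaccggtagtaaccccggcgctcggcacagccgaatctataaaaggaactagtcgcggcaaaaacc

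Abcg1, the partner pump that passes cholesterol to high-density lipoprotein, overlapped between diets, at 5.77 ± 1.26 against 6.78 ± 1.31 FPKM (SD, n = 4 each) and a log2 fold change of -0.20 (limma adjusted p = 0.601). Npc2 (chr12:84754562-84773152), the soluble protein that hands cholesterol to NPC1 in lysosomes, was the highest of the cholesterol genes. It measured 159, 109, 119 and 155 FPKM in H1 to H4 and 127, 183, 143 and 123 FPKM in N1 to N4. As deposited, H2 and H3 lay below and N2 above all libraries of the other diet while the rest overlapped. The difference was -0.09 (95% interval -0.46 to 0.28). Npc1, the lysosomal membrane transporter, measured 4.06 ± 0.67 against 4.88 ± 0.77 FPKM (difference -0.22, limma adjusted p = 0.546). Stard4, a cytosolic sterol carrier, measured 46.9 ± 10.7 against 41.6 ± 6.40 FPKM (difference 0.15, limma adjusted p = 0.722).

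**Figure D3:**
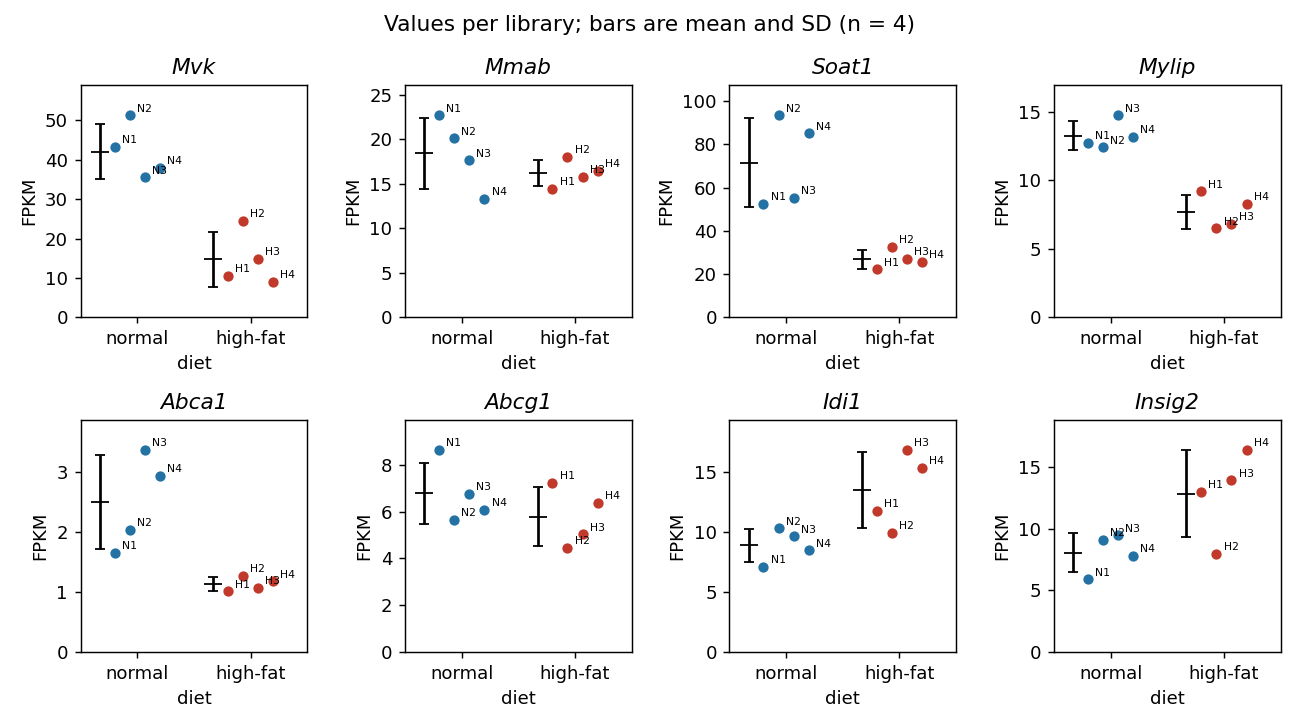
FPKM per library of 8 genes, by diet, with each library named; the bar beside the points is the mean and SD (n = 4). In the values as deposited, the diets stand apart in Mvk, Soat1, Mylip and Abca1. They overlap in Mmab, Abcg1, Idi1 and Insig2, in the last 2 through H2, and in Idi1 only with the repeating factor kept.

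Levels of different genes can be set side by side only as far as the length behind each value is right. Over the 27 tested genes mean FPKM ran from 1.82 (Abca1) to 140 (Npc2), with a median of 11.2 against 9.57 over all tested genes. The gene length implied by the value of 1 read was 99.5% of the annotated exon bases (GENCODE M21) for Abca1, but 20.6% for Npc2, 24.0% for Ggps1 and 17.0% for Stard4. A shorter length raises the FPKM of a given read number, so the order of levels among these genes depends on it, while the diet comparison within a gene does not.

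Spread within a diet was close to that over all genes. The median coefficient of variation over the 27 genes was 18.6% on the high-fat and 18.9% on the normal diet, against 19.2% and 19.6% over all tested genes. Taken as the median deviation of the 17 tested synthesis enzymes from each gene's mean over libraries (log2 scale), H2 stood at -0.16 and the other libraries between -0.06 and 0.09. The same median over all tested genes was -0.13 in H2.

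The promoter windows of RefSeq (GRCm38.p6, 250 bases before to 50 after the start) held an entry for 23 of the 29 genes. The motifs searched, on both strands, were CCAAT, the NF-Y box, GGGCGG, the GC box bound by SP1, and TCACNCCAC, a core of the sterol regulatory element, in which N is any base. The letters of none contain another. CCAAT was found in 20 of 23 genes (87.0%), against 43.0% of the tested genes with a window and 41.1% of all 27025 genes with one, and was not found in Acat2, Scap and Abca1. GGGCGG was found in 21 of 23 (91.3%), against 69.2% and 38.2%, and not in Pmvk and Ggps1. TCACNCCAC was found in Hmgcs1 (1 of 23, 4.35%, against 1.33% and 1.44%). These are matches of letters in a window and are not measured binding. A gene with several starts had several windows and so more chances of a match, and the GGGCGG match counted for Insig2 lies outside the stretch printed above.

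A wider set of 81 pathway genes, chosen by function, had 15 under the filter, 1 with no entry under its name and 65 tested, of which 3 fell and none rose with the high-fat diet. Fold changes were above 0 in 25 and below 0 in 40, with a median of -0.08, and the diets did not overlap in 8 of the 65. Over all tested genes 2.86% passed, 1.88% in the lower direction, 11.1% did not overlap and 52.1% were below 0, against 61.5% of these 65. Soat1, which esterifies cholesterol for storage in droplets, measured 22.4, 32.8, 27.0 and 25.6 FPKM in H1 to H4 and 52.5, 93.5, 55.4 and 85.2 FPKM in N1 to N4. The groups did not overlap, with means of 27.0 ± 4.36 and 71.7 ± 20.7 FPKM (SD, n = 4 each). The log2 fold change was -1.35 (SE 0.20, limma adjusted p = 0.00296), and the call held in all 18 other settings. Lipa and Nceh1, which free cholesterol from esters, differed by -0.04 and 0.06 and did not pass (limma adjusted p = 0.943 and 0.894).

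Mylip, an LXR-induced ubiquitin ligase that degrades lipoprotein receptors, measured 9.19, 6.50, 6.82 and 8.28 FPKM in H1 to H4 and 12.7, 12.4, 14.7 and 13.2 FPKM in N1 to N4, with no overlap. The log2 fold change was -0.72 (SE 0.15, limma adjusted p = 0.0192). The call was lost in 5 of 18 other settings, among them without H3, H4 or N3 (limma adjusted p = 0.0795, 0.0513 and 0.0532) and with no filter on low values (0.0647). The tested genes of the LXR and its partner receptors, Nr1h2 (LXR beta), Rxra and Rxrb, differed by -0.10, 0.04 and -0.17 without passing (limma adjusted p = 0.810, 0.942 and 0.722).

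Rabggtb, the beta subunit of the enzyme that geranylgeranylates Rab proteins, measured 12.2, 11.3, 12.0 and 12.5 FPKM in H1 to H4 and 18.9, 17.2, 17.5 and 17.1 FPKM in N1 to N4. The groups did not overlap, and the log2 fold change was -0.52 (SE 0.13, limma adjusted p = 0.0498). The call held in 6 of 18 other settings and was lost without any 1 library. Its annotated exons hold Snord45b and Snord45c on the same strand, and reads of these genes cannot be told apart here. The libraries do not mark strand, so neither can reads of overlapping genes on the opposite strand. Such genes overlap Idi1, Hmgcs1, Ggps1, Fdft1, Lss, Cyp51, Scap, Srebf1 and Npc1. Tm7sf2 shares 532 of 4403 exon bases with Vps51 on the same strand.

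In the lists with none past the test, the most expressed genes were Acly and Acat1, which supply and condense acetyl-CoA, with differences of -0.42 and -0.31 (limma adjusted p = 0.292 and 0.368). Among uptake and transport genes they were Tspo and Gramd1a, a mitochondrial outer-membrane protein and a sterol carrier between membranes, with differences of -0.13 and -0.21 (limma adjusted p = 0.779 and 0.537). Cd36, a scavenger receptor for fatty acids and oxidised lipoproteins, was picked after its values were seen. It measured 13.5, 1.19, 23.0 and 10.4 FPKM in H1 to H4 and 0.796, 0.449, 0.640 and 1.13 FPKM in N1 to N4. H2 lay next to the normal-diet range, the log2 fold change was 2.48 (limma adjusted p = 0.119), and the gene passed without H2 (limma adjusted p = 1.84e-06). The endothelial, mast cell, T cell and stromal marker sums given above were also lowest of the high-fat libraries in H2. The adipocyte sum, low in all libraries, was highest there at 6.09 FPKM, and the part of these cells in the Cd36 value was not tested.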

How the data were processed

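The 8 libraries (4 per diet) hold RNA of sorted visceral fat ILC2s. Trizol extraction, SMART-Seq HT amplification of full-length cDNA and a transposase library kit were used, per the labels' protocols, and such libraries do not mark strand. HISAT2, Cufflinks and mm10 are named in the submitters' processing notes. Their versions, the annotation and any filters were not given in the sources used here. Per the file headers the authors deposited FPKM. In 14605 of 39527 genes values were below 0, with no gene holding both signs, and these could not be put on a log scale. Values also carry a factor of 0.863 to 1.18 that repeats every 10 rows and differs between libraries within a gene. It therefore shifts libraries against each other, and the single-library values and their order given here include it. In the main test it was kept, and in an alternative it was divided out. Whole reads (relative tolerance 1e-06) were recovered for 100% of 24107 genes above 0. Totals ran from 9005363 to 15752815 reads, which sets the counting precision. Columns of other samples numbered 0.

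The groups were compared on log2(FPKM + 1) with limma 3.58.1 in R 4.3.3, with diet as the only term and trend and robust options. The 11483 genes at 1 FPKM or more in at least 4 libraries were tested, two-sided, with Benjamini-Hochberg adjustment at 0.05; differences are high-fat minus normal diet. The code was tested on simulated data. Alternatives were 2 normalizations, a pseudocount of 0.1, other filters, plain eBayes, the factor divided out, a replicate block, leaving out each library and, chosen after the data were seen, leaving out H2 with N2 and limma voom on recovered reads. Genes were given library by library if called, if the diets did not overlap, or if among the 4 highest in mean FPKM; Idi1, Insig2, Nsdhl, Hmgcs1 and Cd36 were added after their values were seen. Of the wider lists, called genes and, where none was called, the 2 most expressed were named; Lipa, Nceh1, Nr1h2, Rxra and Rxrb were also added after their values were seen, and Mmab as the neighbour of Mvk. The cholesterol genes and lists were chosen with earlier results of these data known.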

Additional observations from a re-analysis of the deposited data

Results flagged for a closer look

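In 3 of 74 groups of 4 libraries that were checked, 1 library lay far from the other 3, by a rule that chance alone meets in about 1 in 20 groups. Mvd was at 10.1 FPKM in N3 and at 7.83 to 7.94 FPKM in the other normal-diet libraries. Scap was at 17.3 FPKM in H4 and at 13.0 to 13.2 FPKM in the other high-fat libraries. Gramd1a was at 403 FPKM in N2 and at 276 to 285 FPKM in the other normal-diet libraries. The flags were set on values as deposited, whose repeating factor differs between libraries within a gene. Before scaling to library size, Mvd had 176 reads in N3 and 147, 156 and 169 in N1, N2 and N4. Scap had 706, 509, 795 and 925 reads in H1 to H4. These reads were divided by the library divisor implied by the deposited values, which leaves the factor out. The divisors were 10363138, 11104425, 11888452 and 12536218 in N1 to N4 and 12526800, 9214408, 12484798 and 13595913 in H1 to H4. N3 in Mvd and H4 in Scap then stayed highest but did not meet the rule. The Gramd1a flag was not checked in this way, and the part of the factor in it was not tested. None of the 3 genes passed the diet test with all libraries in.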

How the results depend on the processing

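Mvk was called in 17 of 18 other settings, and 23 of the 27 tested cholesterol genes in none. The count of called cholesterol genes, 1, became 0 under quantile normalization, 2 with 1 FPKM or more in all 8 libraries, 3 without both H2 and N2 and 2 with voom on recovered reads, and ranged from 1 to 3 when 1 library was left out. The count over all genes, 328, became 130 with no filter, 571 with the repeating factor divided out and 845 with voom, and ranged from 129 to 536 when 1 library was left out. Of all calls, 112 were higher and 216 lower; the split was 226 and 204 under quantile normalization and 242 and 216 without both H2 and N2.

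Equal replicate numbers do not pair the libraries: deviations correlated at -0.07, -0.25, -0.07 and 0.08. With a replicate block, 191 genes were called, Mvk among them (limma adjusted p = 0.00949), and Mylip and Rabggtb were lost (0.0592 and 0.122). With no filter they were also lost (0.0647 and 0.108).

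Signs turned in differences that had not passed. Under quantile normalization they turned in Ggps1 (0.039), Npc2 (0.074) and Tspo (0.027). Without both H2 and N2 they turned in Acat2 (0.018), Ggps1 (0.13), Hsd17b7 (0.21), Ebp (0.017), Npc2 (0.13) and Tspo (0.13). With 1 library left out the ranges crossed 0 in Acat2 (-0.21 to 0.0054), Ggps1 (-0.15 to 0.085), Lss (-0.028 to 0.23), Msmo1 (-0.019 to 0.19), Nsdhl (-0.51 to 0.0135), Hsd17b7 (-0.23 to 0.0895), Insig1 (-0.042 to 0.23), Npc2 (-0.17 to 0.031) and Tspo (-0.26 to 0.039). The cause was not tested. For Fdps, 0 to 11 reads per library give no usable diet comparison.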
